A study of Arabidopsis thaliana with 18 samples.

Results

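The transcripts described here stood high on the first arrays and lower on later ones, both in plants given salicylic acid (SA) and in plants given the surfactant alone. Their working name is the early response to spraying, though the labels tie no array to a time. They were 137 of the 22746 probe sets other than controls on an Affymetrix ATH1 array. Each was chosen because its median signal over the first 3 arrays of a treatment stood well above its medians over the next 3 and the last 3. This was asked of both treatments, with similar first levels. The arrays carried biotin-labelled total RNA of Arabidopsis thaliana, accession Tsu-1. The SA plants had been given SA at 0.30 mM together with silwet at 0.02% (arrays 100 to 102, 103 to 105 and 106 to 108), and the silwet plants this wetting agent at 0.02% with no SA (arrays 91 to 93, 94 to 96 and 97 to 99). These runs of 3 arrays, numbered as in the sample titles, are called the first, the second and the third triplet, and each holds replicate numbers 1, 2 and 3. All 6 groups of 3 shared the accession and the surfactant, and no unsprayed plants were analysed here.

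The labels give no tissue, age or time after treatment, so the triplets stand in the order of array numbers and not of hours. No label states separate plants behind the 3 arrays of a triplet, so p-values measure the spread between arrays, which may be technical.

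A leaf that is wetted, touched or wounded lets calcium into its cells, and calmodulin-like proteins, protein kinases and transcription factors of the zinc finger, WRKY and bZIP families respond within a short time. Many of these transcripts have short half-lives and fall again once the stimulus is over. Genes for detoxifying enzymes, efflux carriers, wall proteins and mitochondrial stress proteins are often induced by the same stimuli. Roles given for single genes below are general knowledge of Arabidopsis and not results of these arrays.

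The rule worked on medians of the log2 signal over the arrays of a triplet. It asked for a first median of at least 6 in both treatments, which 7603 probe sets had, and for first medians within 0.7 of each other, which 6578 of them met. Among these, 253 had a first median at least 1.2 above both later medians in SA and 161 in silwet, and the 137 members met both conditions. The limit of 300 members was not reached. Of the members, 66 were named by 1 gene, 1 by several genes and 70 were not named here. The smallest of a member's 4 gaps (first over the second and over the third triplet, in SA and in silwet) was at least 2 log2 units for 45 members and at least 3 for 7. Just inside the threshold lay AT1G19380 with a smallest gap of 1.2003, probe set 259875_s_at with 1.2005 and AT3G57880 with 1.2073. Just outside lay probe set 260418_s_at with 1.1958, AT1G06640 with 1.1901 and probe set 256057_at with 1.1893. With the rule turned round, so that the first triplet lay at least 1.2 below both later ones and the later medians reached 6, 11 probe sets were found.

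These gaps chose the members and are given as a description. In SA the first median exceeded the second by a median of 2.27 log2 units over the members (4.82-fold) and the third by 2.69 (6.45-fold). In silwet the corresponding medians were 2.04 (4.11-fold) over the second and 2.21 (4.63-fold) over the third. Over all 22746 probe sets the same medians lay between -0.12 and 0.00. The median first level of a member was 8.62 in SA and 8.38 in silwet, where the median probe set stood at 4.95 in SA and 5.07 in silwet. In the second triplets the median member stood at 6.31 in SA and 6.27 in silwet, and in the third at 5.70 in SA and 6.01 in silwet.

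**Figure D1:**
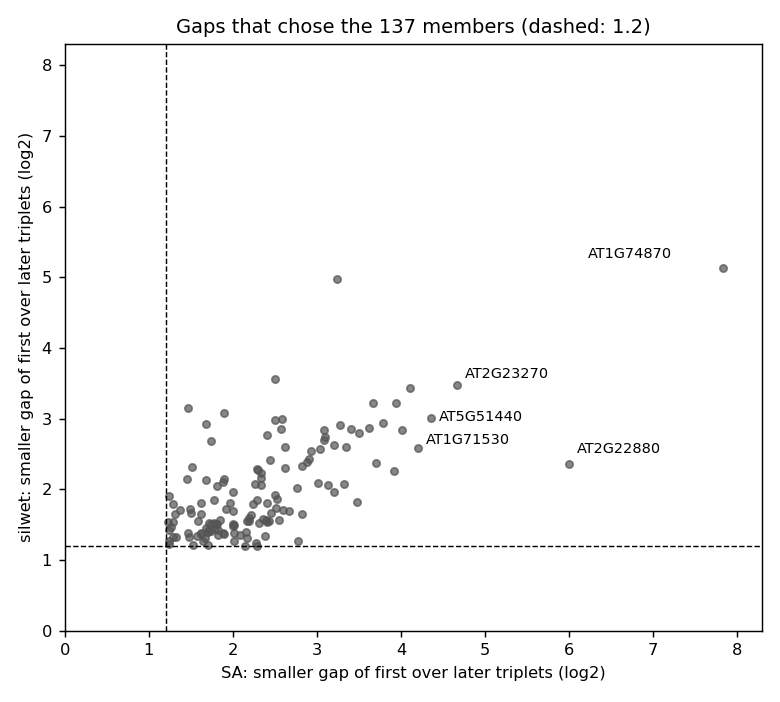
Each point is 1 of the 137 members, with the smaller of its 2 gaps in SA on the x axis and in silwet on the y axis (log2 units). The dashed lines mark the 1.2 that the rule asked for; AT1G74870 has the largest value on both axes.

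Array by array, the median member stood at 8.06, 8.22 and 8.71 on the first SA arrays, 6.13, 6.05 and 6.83 on the second and 5.60, 5.62 and 5.84 on the third. On silwet arrays it stood at 8.32, 8.10 and 8.88 on the first, 6.25, 6.23 and 6.61 on the second and 5.78, 6.09 and 5.97 on the third. All first arrays lay above all later ones in this summary. For single members the lowest first array lay above each of the 6 later arrays in 107 of 137 members in SA, against 7.86% of all probe sets, and in 131 of 137 in silwet, against 5.02%; the rule fixes most of this. It held in both treatments for 101 members. Of the 30 members that overlapped in SA, 14 had their lowest first value on array 100 and 16 on array 101, while none had it on array 102.

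**Figure D2:**
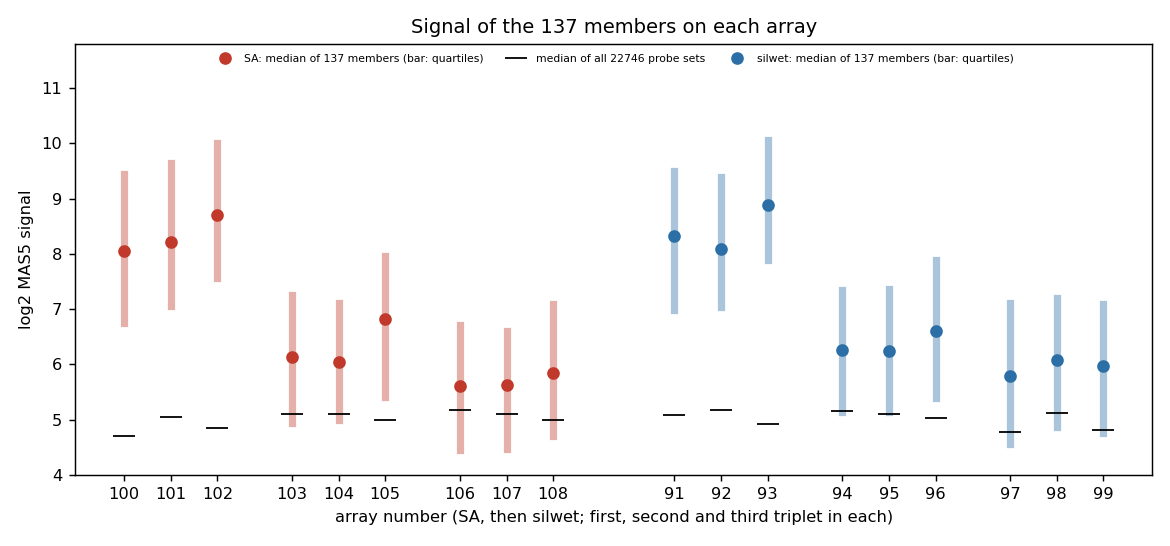
The y axis is log2 signal and the x axis the 18 arrays, SA on the left and silwet on the right, in triplets. Points are the median of the 137 members, bars their quartiles and black dashes the median of all 22746 probe sets. The dashes stay between 4.70 and 5.17, while the points lie above 8 in the first triplets and below 7 in the later ones.

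The member with the largest smallest gap among all 137 was AT1G74870, a RING-finger protein of the type that acts in ubiquitin ligases, with 5.13 log2 units. Its log2 signal was 8.83, 9.93 and 9.29 on the first SA arrays, 1.46, 1.09 and 4.27 on the second and 0.10, -0.40 and 3.64 on the third. In silwet plants it was 8.34, 8.84 and 9.67 on the first, 3.71, 3.07 and 3.95 on the second and 0.30, 0.90 and 3.34 on the third. The first arrays stood apart in both treatments, and arrays 105, 108 and 99 of replicate number 3 were the highest of the later arrays of their triplets, together with array 96. Later values near 0 are dim signals of this scale, where log2 values scatter.

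AT2G23270 followed among the named genes. It had 7.72, 7.93 and 7.51 on the first SA arrays, 3.06, 2.73 and 3.36 on the second and 2.37, 2.40 and 2.63 on the third. In silwet plants it had 7.11, 7.20 and 8.07 on the first, 4.19, 3.22 and 3.73 on the second and 0.14, 1.46 and 2.91 on the third. First and later arrays did not overlap, and the lowest values of all were those of silwet arrays 97 and 98. AT4G28460 had first values of 7.77 to 8.96 over both treatments and later values of 3.79 to 5.52. AT1G19020 had 10.27, 10.62 and 10.53 on the first SA arrays, 7.45, 7.19 and 8.44 on the second and 6.03, 6.56 and 7.39 on the third. Silwet plants gave 10.22, 10.45 and 10.55 on the first, 6.95, 6.89 and 8.34 on the second and 7.34, 7.61 and 7.73 on the third, with no overlap between first and later arrays.

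AT5G51440, a mitochondrial small heat shock protein, was at 9.79, 10.40 and 9.96 on the first SA arrays, 5.60, 5.35 and 6.80 on the second and 4.74, 4.52 and 4.31 on the third. In silwet plants the values were 9.04, 9.58 and 10.13 on the first, 6.57, 6.5 and 7.45 on the second and 5.32, 5.13 and 5.4 on the third. The first and the later arrays did not overlap, and all 3 SA values of the third triplet lay below those of silwet. AT2G21640, a mitochondrial protein known as a marker of oxidative stress, had 9.44, 9.62 and 9.89 on the first SA arrays, 6.28, 6.74 and 7.72 on the second and 5.52, 5.46 and 5.66 on the third. Its silwet values were 9.70, 9.82 and 10.31 on the first, 7.30, 7.43 and 8.08 on the second and 6.16, 6.02 and 5.96 on the third. In both treatments no second array reached the range of the first and no array of the third triplet that of the second. MSRB9, a methionine sulfoxide reductase that repairs oxidised proteins, had 9.03, 7.09 and 8.73 on the first SA arrays, 7.05, 6.88 and 7.79 on the second and 5.10, 6.32 and 6.93 on the third. Array 101 was its low first array and lay below array 105, and in silwet plants its first values of 8.28 to 8.90 lay above later values of 5.76 to 7.85.

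Among regulators of transcription, STZ (ZAT10), a zinc finger repressor of abiotic stress responses, had 9.49, 9.05 and 9.88 on the first SA arrays, 6.97, 7.09 and 7.49 on the second and 7.20, 7.0 and 7.26 on the third. On silwet arrays it had 8.39, 9.15 and 9.59 on the first, 6.90, 6.57 and 6.66 on the second and 8.73, 7.19 and 7.29 on the third. SA arrays did not overlap, but silwet array 97, at 8.73, lay above array 91, at 8.39. BZIP60, a bZIP factor of the unfolded protein response in the endoplasmic reticulum, had 10.47, 10.33 and 10.60 on the first SA arrays, 8.91, 8.10 and 8.90 on the second and 7.94, 7.86 and 8.34 on the third. In silwet plants its values were 10.22, 9.69 and 10.66 on the first, 8.18, 8.27 and 8.86 on the second and 8.88, 8.08 and 9.11 on the third. All first arrays lay above all later ones within each treatment, and the values of the third triplets were 7.86 to 8.34 in SA and 8.08 to 9.11 in silwet.

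AT1G10585, a basic helix-loop-helix protein, had 8.97, 6.92 and 9.23 on the first SA arrays, 5.70, 4.23 and 7.18 on the second and 3.13, 4.29 and 5.35 on the third. Array 101 overlapped with array 105 there, while the silwet first values of 7.47 to 9.04 stood clear of later values of 4.03 to 6.23. AT2G22880, a VQ-motif protein of a family that binds WRKY factors, had 7.01, 6.27 and 8.05 on the first SA arrays, 1.02, -0.39 and 4.82 on the second and 0.18, 0.19 and 3.63 on the third. Its silwet values were 6.73, 6.62 and 8.34 on the first, 0.39, 0.16 and 4.23 on the second and 4.36, 2.33 and 4.61 on the third. Its first values stood apart on both sides, and arrays 105, 108, 96 and 99 of replicate number 3 were again its highest later values in their triplets. AT5G59450, a GRAS-domain protein, had first values of 6.71 to 7.63 and later values of 4.60 to 6.18 over both treatments.

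Of calcium and ubiquitin signalling, CML38, a calmodulin-like calcium sensor induced by wounding and low oxygen, had 6.89, 6.90 and 7.70 on the first SA arrays, 4.12, 4.57 and 5.45 on the second and 3.98, 4.33 and 4.71 on the third. Silwet arrays gave 6.98, 7.31 and 8.12 on the first, 4.12, 3.88 and 5.05 on the second and 5.42, 4.68 and 5.16 on the third. There was no overlap of first and later arrays in either treatment. PUB23, a U-box ubiquitin ligase that dampens immune signalling, had 6.27, 7.86 and 8.34 on the first SA arrays, 4.47, 4.66 and 5.36 on the second and 4.28, 4.63 and 4.97 on the third. Silwet arrays gave 7.12, 7.49 and 8.12 on the first, 5.53, 5.24 and 5.76 on the second and 4.18, 5.37 and 4.59 on the third. Array 100, at 6.27, was the lowest first value of PUB23 and still lay above its highest later SA value of 5.36. AT1G21550, a calcium-binding EF-hand protein, had 6.0 to 7.16 on first arrays of both treatments and 4.01 to 4.90 on later ones.

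**Figure D3:**
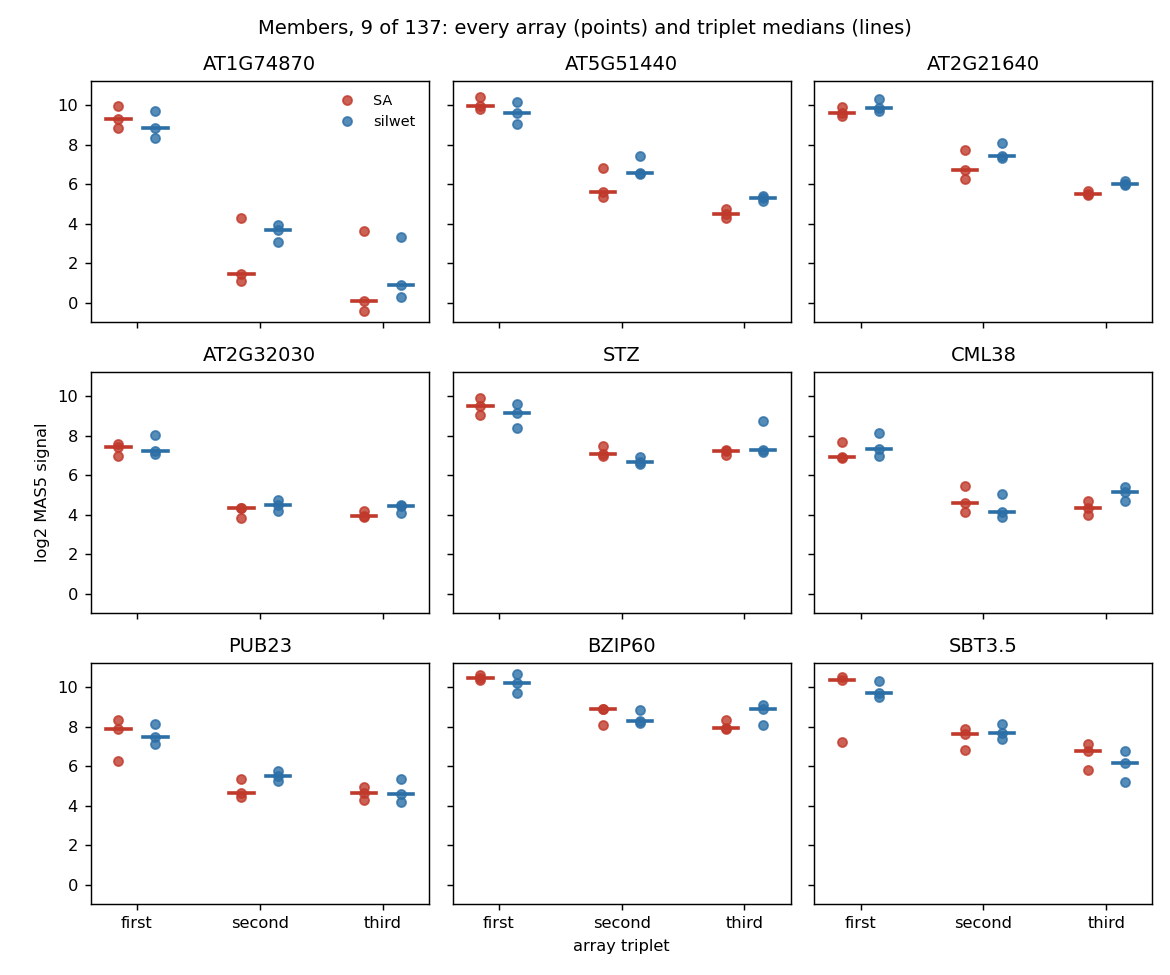
Log2 signal (y axis) of 9 named members in the first, the second and the third triplet (x axis), SA to the left of silwet within each triplet; points are arrays and short lines triplet medians. In all 9 the first medians stand above the later ones, and SBT3.5 and PUB23 each show 1 low first SA array.

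At the cell surface, B120, a lectin-type receptor kinase, had 6.82, 6.97 and 7.15 on the first SA arrays, 3.45, 4.05 and 4.69 on the second and 3.48, 3.54 and 3.5 on the third. Silwet plants gave 6.70, 6.33 and 7.27 on the first, 4.36, 4.03 and 4.27 on the second and 3.97, 3.85 and 3.36 on the third, and first and later arrays did not overlap. AT5G25930, a leucine-rich repeat receptor kinase, had first values of 6.74, 8.98 and 8.61 in SA and 7.61, 8.25 and 8.12 in silwet. Its later values were 6.04 to 6.45 in SA and 5.73 to 6.76 in silwet, so array 100 was the first array closest to them. AT1G61360, another lectin-type receptor kinase, had first values of 7.27 to 8.12 in SA and 7.40 to 8.04 in silwet, above later values of 5.06 to 6.08 in SA and 4.55 to 6.26 in silwet. AT3G22060, a secreted protein of the cysteine-rich repeat family, had 8.38, 9.28 and 9.18 on the first SA arrays, 6.62, 6.05 and 7.27 on the second and 5.60, 5.32 and 6.14 on the third. In silwet plants it had 8.75, 9.38 and 9.41 on the first, 6.27, 6.53 and 7.20 on the second and 5.79, 5.99 and 6.39 on the third, again with no overlap of first and later arrays.

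Of the secreted proteases, SBT3.5, a subtilase, had 7.23, 10.52 and 10.37 on the first SA arrays, 7.61, 6.84 and 7.90 on the second and 5.83, 6.75 and 7.14 on the third. Its silwet values were 9.47, 9.67 and 10.30 on the first, 7.38, 7.66 and 8.13 on the second and 5.19, 6.78 and 6.17 on the third. Array 100 lay within the later SA range, and the other first SA arrays stood apart from it. SBT3.3, a subtilase linked to immune priming, had first values of 3.86, 7.06 and 6.81 in SA and 4.84, 6.35 and 6.87 in silwet. Its array 100 also overlapped with later SA arrays, which reached 4.77, while the later silwet arrays reached 4.41. In the RefSeq order of genes SBT3.3 and SBT3.5 lie with 1 gene between them; they are close relatives, and whether their probe sets pick up each other's transcript was not tested. AT1G24140, a matrix metalloproteinase, had first values of 7.24 to 8.51 in SA and 7.34 to 8.29 in silwet, and later values of 5.51 to 5.95 in SA and 5.62 to 6.22 in silwet.

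Among enzymes and carriers of foreign or secondary compounds, AT2G04050, a MATE-type efflux carrier, had 8.20, 9.65 and 9.63 on the first SA arrays, 5.32, 5.92 and 7.49 on the second and 5.09, 5.65 and 5.77 on the third. On silwet arrays it had 9.49, 9.01 and 10.09 on the first, 7.11, 6.91 and 7.44 on the second and 5.22, 5.87 and 5.65 on the third. First and later arrays stood apart, and in the second triplets SA array 105 was the highest and SA arrays 103 and 104 the lowest. AT5G44050, another carrier of this family, had 7.52, 4.83 and 6.85 on the first SA arrays and overlapped with later SA arrays through array 101. CYP84A4, a cytochrome P450 of arabidopyrone synthesis, had 6.74, 6.93 and 7.03 on the first SA arrays, 3.22, 2.74 and 3.14 on the second and 2.90, 4.04 and 3.59 on the third. Its silwet arrays gave 6.25, 6.21 and 6.60 on the first, 3.08, 2.71 and 3.92 on the second and 3.66, 3.54 and 4.04 on the third, with no overlap of first and later arrays in either treatment.

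CCR2, a cinnamoyl-CoA reductase of the lignin branch that is induced in defence, had 6.23, 5.62 and 7.89 on the first SA arrays, 3.73, 3.61 and 4.89 on the second and 2.45, 2.25 and 1.76 on the third. Silwet plants gave 6.24, 6.57 and 7.01 on the first, 3.01, 0.60 and 3.61 on the second and 0.97, 3.26 and 1.41 on the third. Its first arrays stood apart in both treatments, with the narrowest distance between array 101, at 5.62, and array 105, at 4.89. AT2G32020 and AT2G32030, adjacent genes for acyltransferases of the GNAT type, were both members. AT2G32030 had 7.41, 6.97 and 7.59 on the first SA arrays, 4.32, 3.83 and 4.34 on the second and 4.17, 3.92 and 3.87 on the third. Silwet arrays of this gene read 7.23, 7.07 and 8.04 on the first, 4.21, 4.49 and 4.75 on the second and 4.44, 4.51 and 4.08 on the third. AT2G32020 stood at 8.06 to 8.49 on first SA arrays and 8.34 to 9.74 on first silwet arrays, and its later values were 4.77 to 6.18 in SA and 5.10 to 6.63 in silwet. In both genes all first arrays stood apart from later ones; as neighbours in sequence and position they are not independent of each other.

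Of central metabolism, AT4G17260, a lactate dehydrogenase of fermentation, had 9.63, 10.69 and 10.39 on the first SA arrays, 7.08, 7.38 and 7.63 on the second and 7.28, 6.76 and 7.0 on the third. Silwet plants had 9.93, 9.93 and 10.46 on the first, 7.66, 7.84 and 7.92 on the second and 7.07, 6.98 and 6.55 on the third. First and later arrays did not overlap. AT5G56350, a pyruvate kinase, had first values of 9.35, 10.68 and 10.55 in SA and 10.14, 10.34 and 10.58 in silwet, above later values of 8.32 to 8.96 in SA and 7.85 to 9.12 in silwet. AT2G43620, a chitinase-like protein, had first values of 8.46 to 9.08 in SA and 7.51 to 9.45 in silwet, and later values of 4.71 to 7.37 in SA and 5.68 to 7.08 in silwet.

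Some members had 1 low first SA array. AT4G17470, a thioesterase, had 8.58, 3.92 and 8.0 on first SA arrays and 8.88, 7.57 and 8.38 on first silwet arrays. JAL23, a jacalin-type lectin, had 7.86, 4.68 and 7.79 in SA and 9.20, 7.62 and 7.95 in silwet. AT1G71530, a protein kinase, had 1.79, 6.42 and 6.52 in SA and 5.69, 6.48 and 6.88 in silwet. The low array was 101 for the first of these genes and for JAL23, and 100 for AT1G71530. Because the rule used medians, 1 such array did not keep a probe set from being a member.

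Among the 70 members not named here, probe sets 263231_at, 264415_at, 245173_at and 260040_at had the largest smallest gaps, at 3.43, 3.23, 3.22 and 3.22 log2 units. Probe set 264415_at had 7.04, 3.43 and 7.58 on the first SA arrays, so array 101 was low there too.

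A linear model across 15922 probe sets (limma, with Benjamini-Hochberg adjustment; the lowest 30% of probe sets by mean signal left out) held 136 of the 137 members, and AT1G71530, with a mean of 2.69, fell below its filter. The contrasts of first with later triplets chose the members, so their calls add no support. In SA, limma called 110 members higher in the first than in the second triplet (8.80% of all probe sets were) and 121 higher than in the third (9.64%). In silwet it called 109 (2.78%) and 119 (3.44%). In all 4 contrasts 94 members were called, where 237 probe sets of 15922, or 1.49%, were.

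Whether SA and silwet plants still differed in these transcripts after the first triplet was not set by the rule, which only capped the later values. In the second triplets limma called 0 of 136 members, and 0.00% of all probe sets, with an adjusted p under 0.05. An unadjusted p under 0.05 was reached by 15 members (11.0%) and 367 of all probe sets (2.30%). The median difference, SA minus silwet, was -0.09 log2 units over the members and -0.03 over all, with 58 members above 0 and 78 below. The smallest p of a member belonged to probe set 253416_at, with a difference of -1.81 (SE 0.522, limma adjusted p = 0.9997).

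In the third triplets 0 members and 0.00% of all probe sets were called, with 14 members (10.3%) and 1112 probe sets (6.98%) under an unadjusted p of 0.05. Here 100 of 136 members had lower means in SA and 36 higher, and the median difference was -0.32 against 0.04 over all probe sets. The member with the smallest p was AT1G19380, at -1.17 (SE 0.352, limma adjusted p = 0.6152). SBT3.3 went the other way, at 1.97 (SE 0.797, limma adjusted p = 0.6152).

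The second and the third triplets were also compared within each treatment. In SA, 122 of 136 members had higher means in the second than in the third triplet, with a median difference of 0.58 against -0.01 over all probe sets. Limma called 0 members and 0.00% of probe sets, with 41 members (30.1%) and 587 probe sets (3.69%) under an unadjusted p of 0.05. AT2G21640 had 1.36 (SE 0.298, limma adjusted p = 0.4974) and AT2G43620 had 1.75 (SE 0.421, adjusted p = 0.7356). In silwet, 86 of 136 members were higher in the second triplet and 50 lower, with a median of 0.28 against 0.08 over all. Limma called 0 members and 0.00% of probe sets there, with 40 members (29.4%) and 2169 probe sets (13.6%) under an unadjusted p of 0.05. AT2G21640 had 1.56 (SE 0.298, limma adjusted p = 0.1417), and probe set 247435_at had the smallest adjusted p of the members, 0.06998, at 1.35 (SE 0.217). Without silwet array 98, 11 members (8.09%) and 723 probe sets (4.54%) were called in silwet. Without array 99 it was 1 member (0.735%) and 1 probe set (0.00628%). Without array 100 it was 3 members (2.22%) and 8 probe sets (0.0502%), and without array 105 it was 2 (1.47%) and 4 (0.0251%).

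Whether the gap of first over later triplets differed in size between treatments was read from the gap in SA minus the gap in silwet. The rule asked for gaps of at least 1.2 in both treatments and first medians within 0.7 of each other, so it limited this difference beforehand, and the calls are a description. For the first over the second triplet limma called 0 members, where 0.295% of all probe sets were called, with 10 members (7.35%) and 1624 probe sets (10.2%) under an unadjusted p of 0.05. For the first over the third it called 0 members, where 3.05% were, with 13 members (9.56%) and 3482 probe sets (21.9%) under an unadjusted p of 0.05. The median of this difference over the members was 0.07 for the second triplet and 0.20 for the third, with 73 and 84 of 136 members above 0. With the replicate number as a block, 9 members were called with a larger gap over the third triplet in SA (5.07% of all probe sets were) and 1 over the second (1.22%). Of the named genes these were AT1G19380 at 1.30 (SE 0.309, limma adjusted p = 0.0178), AT3G14200, a DnaJ-domain protein, at 1.51 (SE 0.412, adjusted p = 0.0317) and BZIP60 at 0.92 (SE 0.256, adjusted p = 0.034). AT1G52200 had 1.06 and AT1G03660 0.80. The 9 members are 6.62% of 136, near the 5.07% of all probe sets. Without the block, leaving out array 93 or array 98 gave 2 members each for the third triplet, 1.48% and 1.47% of those tested, where 3.22% and 11.7% of all probe sets were called.

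The rule took medians over replicate numbers, so it did not set differences between numbers inside a triplet directly. In the first triplets of both treatments together, 104 of 136 members had a lower mean on number 1 (arrays 100 and 91) than on numbers 2 and 3, with a median difference of -0.41 against 0.02 over all probe sets. Limma called 0 members, where 0.521% of all probe sets were called, with 45 members (33.1%) and 3410 probe sets (21.4%) under an unadjusted p of 0.05. The lowest differences among named genes were -2.42 for SBT3.3, -1.87 for SBT3.5, -1.57 for AT2G20720, -1.31 for AT5G25930 and -1.28 for AT5G05190. The highest were 1.76 for AT4G17470, 1.52 for JAL23, 1.19 for AT5G44050, 0.80 for AT3G51450 and 0.66 for AT1G10585. Without array 91, which leaves array 100 alone to stand for number 1, 27 members (20%) and 2707 probe sets (17%) were called. Without array 92 it was 9 members (6.67%) and 189 probe sets (1.19%). Without array 97 or 106 the count was 6 members (4.41%), with 249 (1.56%) and 252 (1.58%) probe sets. Without array 94 or 103 it was 1 member (0.735%), with 67 probe sets (0.421%) each. The treatment term of this model is common to all triplets. Without array 91 or 92, an SA effect particular to the first triplet can therefore enter the difference.

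After these values had been seen, number 3 was set against numbers 1 and 2 in the same way. Of 136 members, 134 had a higher mean on number 3 (arrays 102 and 93), with a median difference of 0.52 log2 units against -0.08 over all probe sets. Limma called 0 members, where 0.0440% of all probe sets were called, and 35 members (25.7%) and 1862 probe sets (11.7%) had an unadjusted p under 0.05. All members were read from the same 6 arrays and are not independent of each other.

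**Figure D4:**
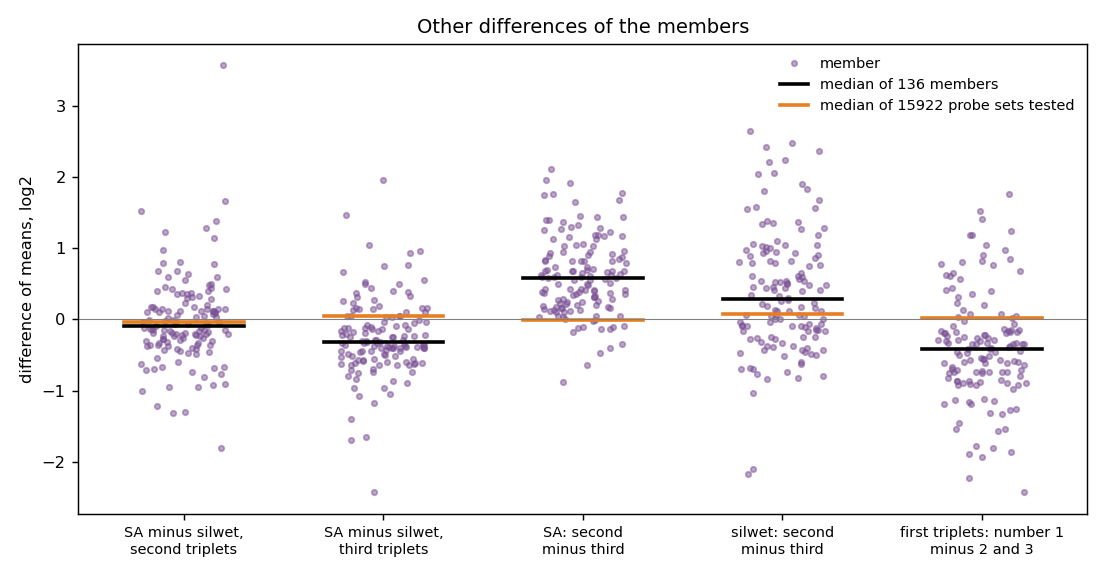
Each point is 1 of the 136 members tested and the y axis is a difference of mean log2 signals, with the contrast named under each column. Black lines are the members' medians and orange lines the medians of 15922 probe sets; the black lines stand at -0.09, -0.32, 0.58, 0.28 and -0.41 from left to right.

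Lists of related genes describe the same contrasts for members and other genes together. The members in them, such as CML38, PUB23, BZIP60 and CCR2, were chosen by these contrasts, so their calls add no support. Few list genes could be named on this table, so each list is described by all of its genes that were tested, and calls are those of limma in the contrasts above. Over all 15922 probe sets the median of first minus later lay between -0.18 and 0.00, and calls of lower signal in the first triplet took 10.6% (over the second) and 12.9% (over the third) in SA and 0.810% and 2.33% in silwet. Of 11 touch and calcium genes, 6 were called higher in the first than in the second SA triplet and 1 lower, and 3 higher and 0 lower in silwet, with medians of 1.25 in SA and 1.07 in silwet. Against the third triplet 6 were higher and 1 lower in SA, and 2 higher and 0 lower in silwet. Besides CML38, XTH18, which remodels xyloglucan in the wall, was called in all 4 contrasts, at 2.55 and 3.03 in SA and 3.67 and 3.27 in silwet. CML42 had 1.79 and 1.35 in SA, both called, and 1.38 (called) and 0.45 (not called) in silwet.

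Of 6 WRKY transcription factors, 3 were called higher and 0 lower in the first than in the second triplet, in SA and in silwet alike, and 3 over the third in SA and 1 in silwet. WRKY53, a regulator of defence and senescence, was called in all 4 contrasts, at 2.36 and 3.41 in SA and 1.61 and 1.48 in silwet, without being a member. Of 10 PUB and ATL ubiquitin ligases, 3 were called higher than in the second triplet in SA and 1 lower, and 2 higher and 0 lower in silwet. Over the third it was 2 higher and 1 lower in SA, and 1 higher and 0 lower in silwet. PUB24, a close relative of PUB23, had 2.18 and 2.17 in SA and 1.06 and 0.50 in silwet. Of 5 genes of endoplasmic reticulum stress, 3 were called higher over both later triplets in SA and 1, BZIP60, in silwet. ATERDJ3B, a chaperone partner, had 1.04 and 1.43 in SA, both called, and -0.24 and -0.09 in silwet.

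Of 6 jasmonate genes, JMT, which methylates jasmonic acid, was called higher in all 4 contrasts, at 2.25 and 3.21 in SA and 3.41 and 4.06 in silwet, as the 1 gene called higher in each. PDF1.2 and PDF1.2b, defensins, were called lower in the first than in the third silwet triplet, at -2.42 and -2.98. Among 54 detoxification genes the calls ran both ways, with 8 higher and 6 lower than in the second triplet in SA, and 2 higher and 3 lower in silwet. Over the third they were 10 higher and 13 lower in SA, and 4 higher and 5 lower in silwet. None of them was a member or was called higher in all 4 contrasts. Members not named here, 70 of 137, could not enter any list, so detoxification genes among them would be missed. UGT73C1, a glycosyltransferase, was called in 3 of the 4, with 2.24 (not called) and 2.88 in SA and 4.01 and 3.62 in silwet. Of 3 phenylpropanoid genes, 1 was called higher over each later triplet in SA and 2 in silwet, with 0 lower, and CCR2 was called in all 4 contrasts. Of 10 photosynthesis genes, 1 was called higher and 1 lower in SA against the second triplet and 1 higher and 0 lower in silwet, with 0 called over the third in either treatment. Of 12 cell division and histone genes, tubulins included, 0 were called higher in any contrast, and 6 were called lower against the second triplet in SA, with TUB1 at -1.06 and TUB5 at -1.11, and 0 in silwet. Over the third 6 were called lower in SA and 1 in silwet.

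Of 14 transporters, 2 were called higher and 0 lower over the second triplet in SA, and 2 higher and 1 lower over the third. Of 6 abscisic acid, cold and drought genes, 1 was higher and 0 lower over the second triplet in SA, and 1 higher and 2 lower over the third, where COR15B had -1.64 and COR47 -1.63. Of 7 auxin genes, 1 was higher and 0 lower over each later triplet in SA. In silwet 0 genes of these lists were called over either later triplet. The lists of ERF, NAC and MYB factors, receptor kinases, proteasome subunits and ethylene, clock, sugar starvation and sulfate genes held 1 or 2 genes each. None of those was called over the second triplet, and over the third the calls were 2 ERF, 1 clock and 2 sulfate genes lower in SA. The 2 genes of SA and defence, GRX480 (2.62 and 2.92) and SAG101 (0.80 and 0.98), were called higher over both later triplets in SA and in neither contrast of silwet, where they had 1.09 and 0.28, and -0.23 and 0.08. Of 10 redox genes, 2 were called higher and 2 lower over the second triplet in SA and 3 higher and 1 lower over the third, against 0 over the second and 1 higher over the third in silwet. The peroxidases PRX52 and PRXR1 were the lower ones over the second SA triplet, at -1.42 and -1.28. NDB2, a mitochondrial NADH dehydrogenase, had 1.91 and 2.88 in SA, both called, and 1.02 (not called) and 1.94 (called) in silwet. No gene of the lists of heat shock, ribosome and camalexin genes had a probe set named here under the symbols searched.

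The 66 named members lay on all 5 chromosomes, 23 on chromosome 1, 17 on 2, 6 on 3, 6 on 4 and 14 on 5. Within 5 genes of each other in the RefSeq order lay AT1G24095 and AT1G24140, then AT1G32920, SBT3.5 and SBT3.3, then AT1G76600 and CML38, and the adjacent AT2G32020 and AT2G32030.

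Over all probe sets, the median signal of an array ran from 26.01 to 35.90, and the mean correlation of an array with the 17 others from 0.899 on array 100 to 0.939, with 0.915 on array 97. The log2 3'/5' ratio of actin control probe sets, a sign of RNA quality, was highest on arrays 91 (3.42) and 100 (3.19), both of number 1 in the first triplets, and ran from 1.501 to 2.38 on the other 16 arrays. Its part in the results was not tested. Of the marker genes of leaf, 4 of 7 could be named and stood at 10.07 to 12.08 on all arrays. Of 6 root markers only PYK10, a beta-glucosidase of root endoplasmic reticulum bodies, was named. Its triplet medians were 8.26, 7.73 and 6.96 in SA and 8.21, 7.31 and 6.86 in silwet. Like the members it was highest in the first triplets. Its differences were smaller than the members' median gaps of 2.27 and 2.69 in SA and 2.04 and 2.21 in silwet. The part of PYK10 in the result was not tested. The single named markers of flower and pollen (AGL18), seed (PAP85) and guard cells (FAMA) lay between 0.65 and 5.54. In RNA of whole samples, fewer cells of a type and less RNA per cell cannot be told apart.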

How the data were processed

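RNA of 18 Arabidopsis samples had been hybridised to ATH1 arrays. The authors deposited 1 table of linear intensity values, 1 per probe set and array. They came from MAS5, the one tool that the submitters' processing notes name, without a version. Values were used as deposited and taken as log2. MAS5 scales each array to a common trimmed mean, and dim signals scatter widely on the log2 scale. No detection calls were used, and promoter letters were not analysed here.

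Names came from the platform annotation, brought up to date with RefSeq names (assembly TAIR10.1): 13513 of 22746 probe sets other than controls had 1 gene, 503 several and 8730 none here. No coordinates are given, since the table names no build. The members, gene lists and tests were chosen with earlier results of these data known. List patterns that matched unrelated genes of like symbol were removed after the names, and in part the values, had been seen.

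Differences between groups came from limma (version 3.58.1, under R 4.3.3; 6 group means, trended eBayes, Benjamini-Hochberg over 15922 probe sets, threshold 0.05; the lowest 30% by mean signal left out). Replicate numbers were tested in a model of triplet position by number plus treatment, with a treatment term common to all triplets. Each SE is that of the model. The test was also run on simulated data in which residuals were shuffled between arrays, for each probe set on its own. Such data lack the correlation of same-numbered arrays, so they cannot check the test for it. The number of arrays limits the precision.

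Deviations of same-numbered arrays from their triplet means correlated at 0.325 to 0.409, 0.216 to 0.481 and 0.249 to 0.436 between treatments in the first, the second and the third triplets, which pairs them. Between the second and the third triplets the range was 0.296 to 0.455 in SA and -0.051 to 0.36 in silwet. The main fit left the pairing of same-numbered arrays out, and the replicate block was an alternative fit. Where the main fit called no member, this does not show that no member differed. With the block, 9 of 136 members (6.62%) were called with a larger gap over the third triplet in SA, against 5.07% of all probe sets.

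Genes were named by a fixed rule: the 15 named members with the largest smallest gap, members in any list (up to 6 a list), the 3 probe sets on each side of the 1.2 threshold, members called in a test, and those with the most extreme differences of replicate number 1 (up to 5 on each side). Other members were chosen by role after their values were seen.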

Additional observations from a re-analysis of the deposited data

How the results depend on the processing

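The number of members was 175 with a threshold of 1.0, 91 with 1.5, 82 with first triplets within 0.4, 143 with means in place of medians (102 of them shared), 140 with quantile normalization (130 shared) and 137 with a floor at the 20th percentile. It ran from 108 to 199 when single arrays were left out and was 121 without arrays 97 and 100 together, an alternative chosen after seeing the data. With array weights, 46 members were called for SA minus silwet in the third triplets (5380 probe sets in all, 19 in the second). The second minus the third triplet gave 5 members (21 probe sets) in SA and 57 (6650) in silwet. The treatment difference of the gap gave 3 (1201) over the second triplet and 23 (4530) over the third. With 136 members among 15922 probe sets tested, the 46 and the 57 members are shares near those of all probe sets. The members' share was below that of all probe sets for both gaps, and above it for the second minus the third triplet in SA. With the replicate block these gap differences gave 1 member (325 probe sets) and 9 members (1850), and the second minus the third triplet gave 2 probe sets in SA, and 3 members (11 probe sets) in silwet; the block changed no other call of a member among the comparisons of later triplets. With the lowest 50% left out, or quantile normalization, 1 member was called for the gap over the third triplet. The main fit called 3.05% of all probe sets for this gap, and the shares in these other settings are not given here. In silwet, the second minus the third triplet gave 2 probe sets with no filter, 1 each with the lowest 50% left out, quantile normalization or a floor, and 3 members (4 probe sets) without arrays 97 and 100, where SA gave 1 probe set and the gap over the second triplet 483. For replicate number 1, 3 members were called with the lowest 50% left out or quantile normalization and 2 with a floor. The share of all probe sets called in those settings is not given here, so these counts show nothing particular to the members. In other settings the count of probe sets was 32 with no filter, 24 without a trend, 29 without arrays 97 and 100 and 1 with array weights. Leaving out single arrays gave 0 to 3 probe sets and 0 members for SA minus silwet in the second triplets, and 0 to 1 and 0 in the third. For the second minus the third triplet it gave 0 members (0 to 2 probe sets) in SA and 0 to 11 members (0 to 723 probe sets) in silwet. For the gap it gave 0 members (1 to 170 probe sets) over the second triplet and 0 to 2 (99 to 1858) over the third, and for number 1 it gave 0 to 27 (0 to 2707). The median over the members of the difference in first means, SA minus silwet, was -0.04, and 0.22 without arrays 97 and 100. For first medians, which the rule bounded, the median difference was 0.25, against -0.06 over all probe sets. By first medians, SA stood above silwet in 100 of 137 members. Causes were not tested. Low signal limits the precision of members whose later values are near background.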

Other observations

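The array of number 3 was the highest of its triplet for 61 of 137 members in the first SA triplet (44.5%, against 18.3% of all probe sets) and for 116 in the first silwet triplet (84.7% against 23.6%). It was the highest for 112 members in the second SA triplet (81.8% against 24.8%) and 98 in the second silwet triplet (71.5% against 33.6%). In the third triplets it was the highest for 79 members in SA (57.7% against 26.9%) and 51 in silwet (37.2% against 22.6%). The median SD of a member inside a triplet was 0.55 in the first SA triplet and 0.50 in the first silwet triplet, against 0.41 and 0.27 over all probe sets tested. It was also the larger in later triplets. In the second it was 0.49 in SA (0.27 over all) and 0.37 in silwet (0.22). In the third it was 0.35 in SA (0.24) and 0.44 in silwet (0.38).

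A list of members whose first SA value was low on array 101, among them AT4G17470, JAL23, MSRB9, AT5G44050 and AT1G10585, and a list low on array 100, among them SBT3.3, SBT3.5, AT3G57880 and AT1G71530, shared no member by construction, since each member has 1 lowest first array. In silwet plants the lowest first array was 92 for the first 5 of these genes, and 91 for SBT3.3, SBT3.5 and AT1G71530 but 92 for AT3G57880. Arrays 101 and 92 carry replicate number 2, and arrays 100 and 91 number 1. Over all 137 members the lowest first silwet array was 91 for 72, 92 for 62 and 93 for 3. With nearly all members lowest on 91 or 92, a match by number can often arise without a link. The named genes are examples, and the share of matches over the lists is not given here, so no conclusion is drawn from them.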
